A study of Mus musculus with 27 samples.

Results

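The mammalian circadian clock was followed through 8 probe sets of 5 clock genes, out of 45101 probe sets on an Affymetrix mouse expression array, in medulloblastoma grown from Ptch+/-p53-/- mice and exposed to a Smoothened antagonist. The probe sets were taken by identifier: 1449851_at for Per1, 1 probe set for Arntl (Bmal1), a first probe set and 1417603_at for Per2, a first probe set and 1438211_s_at for Dbp, and 1426464_at and 1421802_at for Nr1d1. All 8 identifiers head the panels of the plot of signals by group. Their genes were given with the identifiers, and no table used here pairs probe sets with genes, so the assignments could not be checked. That of 1421802_at is the least sure.

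Every tumour carried the genotype Ptch+/-p53-/-. Dissociated tumour cells were injected under the skin of the right flank of nude (nu/nu) mice, so the grafts grew outside the brain in hosts that lack a thymus. RNA was measured in 21 tumours, 1 per array. Vehicle was given to 8 mice, and tumours were taken from 3 of them after 4 h, from 3 after 16 h and from 2 after 48 h. NVP-LDE225, which blocks the Hedgehog pathway protein Smoothened, was given to 8 mice with sensitive tumours at 20 mg/kg/day in 1 daily dose. Their tumours were taken after the same 3 times, from 3, 3 and 2 mice. Another 5 tumours had become resistant under continuous LDE225 and were taken on day 26 of treatment, from 2 mice on 20 and 3 mice on 160 mg/kg/day, each split over 2 daily doses. The labels give hours of treatment but no time of day, and the ages of the mice are not given in the sources used here. DNA was compared with normal liver DNA of wildtype genotype in 6 further measurements, covering 3 vehicle and 3 resistant tumours of day 26. The resistant ones came from the doses of 40, 80 and 160 mg/kg/day, and the labels do not say whether any of these tumours was also used for RNA.

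In the core clock, ARNTL (BMAL1) pairs with CLOCK and binds E-boxes in DNA to switch on the Per and Cry genes, whose proteins return to block that pair. The same pair drives Nr1d1, which encodes the repressor REV-ERB alpha. REV-ERB alpha competes with the activating ROR receptors for elements at the Arntl gene and so closes a second loop. Dbp is a direct target of the pair and encodes a transcription factor that binds D-boxes at other rhythmic genes, Per1 among them. In most rhythmic tissues Dbp, Nr1d1 and the Per genes peak in a different part of the day from Arntl. Per1 also answers acute signals such as glucocorticoids and cAMP.

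The elements through which these proteins are known to act were searched for in the RefSeq windows around the start sites (250 bases before to 50 after, build GRCm38.p6), to show where the clock factors could meet the measured genes. Windows were held for 4 of the 5 genes, all but Per2, and numbered 6. The letters searched were CACGTG (E-box), CACGTT (E-box variant), TTATGNAA (D-box) and TAGGTCA (core of a ROR element), on both strands, and none of these motifs contains another. Each stretch of 30 bases is written 5′ to 3′ along the gene's strand, with the matching letters in capitals. The Per1 stretches lie on the plus strand at chr11:69098771-69098800 and chr11:69098914-69098943, the Arntl stretch on the plus strand at chr7:113207529-113207558, and the Nr1d1 stretch on the minus strand at chr11:98775388-98775417.
Per1 E-box: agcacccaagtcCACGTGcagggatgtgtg
Per1 D-box: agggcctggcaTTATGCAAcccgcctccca
Arntl ROR element core: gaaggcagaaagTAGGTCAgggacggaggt
Nr1d1 E-box variant: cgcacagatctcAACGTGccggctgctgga

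The Per1 window thus held an E-box that begins at position -166 from the start site and a D-box that begins at -24. The Arntl match began at position 31 after the start of 1 of its 2 overlapping windows, and the Nr1d1 match, read on the other strand as CACGTT, began at -28. The other 3 windows, the Dbp window among them, held none of these letters. Among all 32851 windows of this length, 7.15% held CACGTG, 4.68% CACGTT, 3.38% TTATGNAA and 2.61% TAGGTCA. A match is a run of letters, and binding was not measured.

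Mean signals of the arrays were similar, from 221.4 to 256.4, but medians ran from 21.6 to 36.1 and 40th percentiles from 11.2 to 19.3. Signals of dim probe sets are thus less comparable across arrays than the means alone would show. No 2 arrays correlated above 0.979. The ratio of the actin control's 3′ to its 5′ probe set, which rises as RNA is shortened, lay between 1.25 and 1.40 on the 9 arrays of 48 h and of resistant tumours, and between 1.53 and 1.91 on the 12 arrays of 4 h and 16 h. This ratio thus moved together with the step from 16 h to 48 h and with resistance, and results across that step are given with and without it as a covariate. Because these ranges do not overlap, the covariate is set by scatter within groups. It cannot separate the ratio from that step, whether a call is kept or lost. In whole tumours, a change in the share of a cell type and a change in RNA per cell cannot be told apart, and markers of tumour, host or immune cells could not be matched to probe sets.

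**Figure D1:**
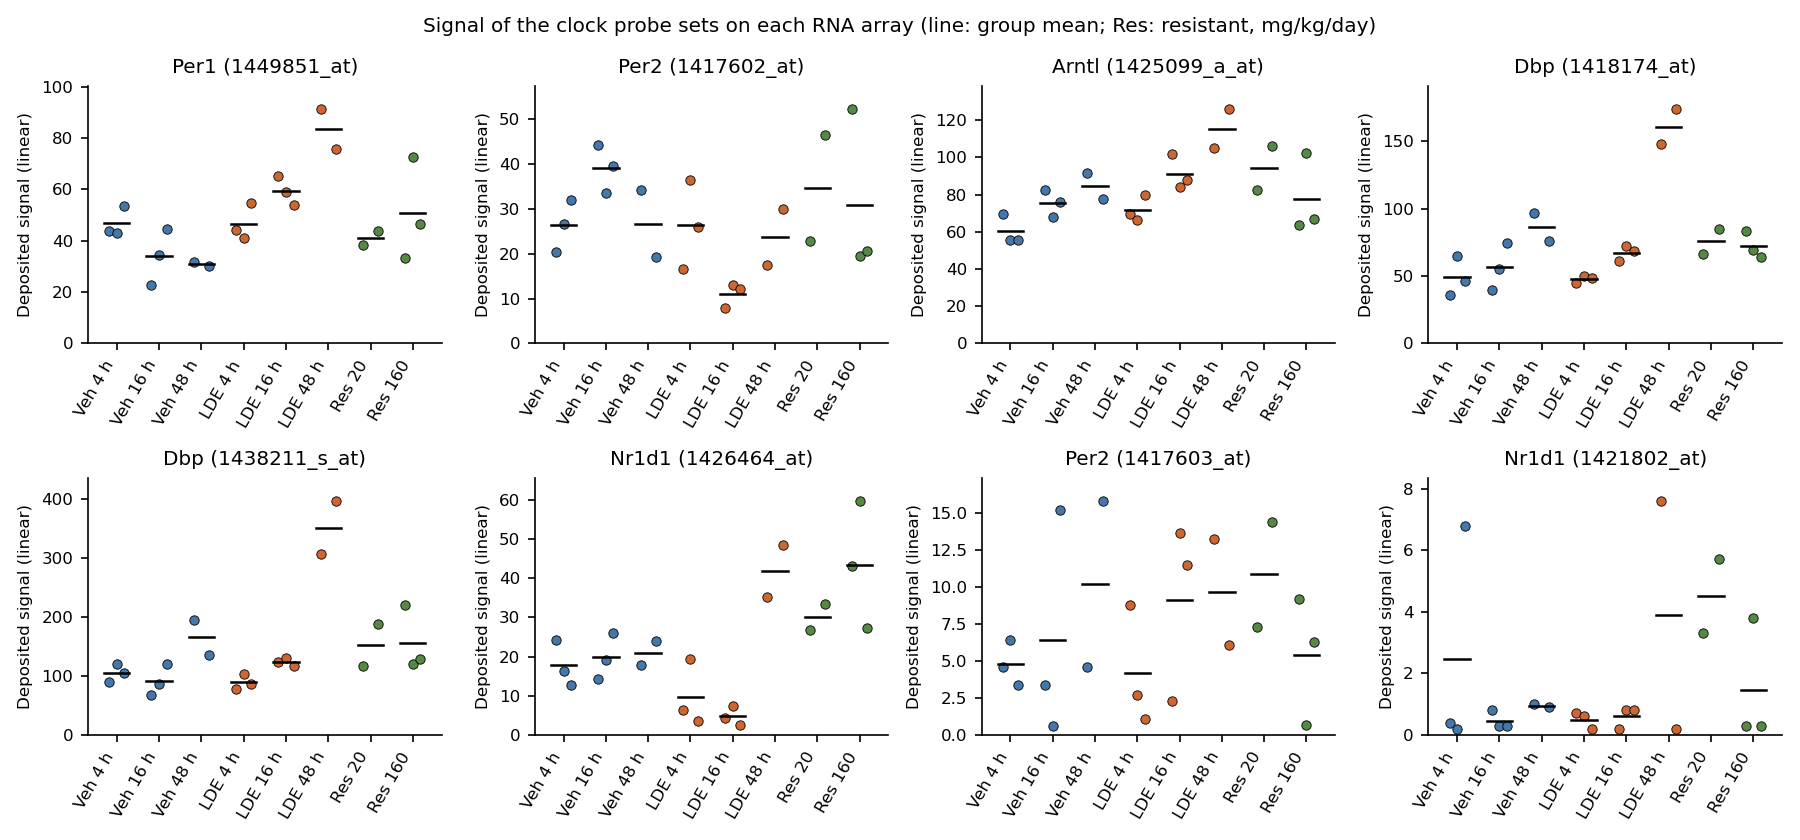
Deposited linear signal (y axis) of the 8 clock probe sets on each of 21 arrays, by group (x axis); each point is 1 tumour and each line a group mean. Both Dbp probe sets stand highest at 48 h of LDE225, at 147.7 and 173.5 and at 306.9 and 397.4, while Per2 (first probe set) is lowest at 16 h of LDE225, from 8 to 13.1.

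The activator Arntl had a signal on the deposited linear scale of 69.7, 55.8 and 55.4 in vehicle tumours at 4 h, 82.2, 67.8 and 76.2 at 16 h, and 91.4 and 77.5 at 48 h. Under LDE225 it was 69.4, 66.5 and 79.5 at 4 h, 101.6, 84.1 and 87.6 at 16 h, and 105 and 125.7 at 48 h. Resistant tumours gave 82.6 and 106.3 on the lower dose and 63.5, 102.4 and 67.1 on the higher dose. The 48 h tumours were above the 4 h tumours in both treatments, while neighbouring groups overlapped all along the order from LDE225 at 48 h (115 ± 14.6, SD, n = 2) down to vehicle at 4 h (60.3 ± 8.14, SD, n = 3). Arntl stood between the 61.2th and 70.6th percentile of its array throughout.

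The repressor Per1 had a signal of 43.8, 43.2 and 53.4 in vehicle tumours at 4 h, 22.6, 34.5 and 44.6 at 16 h, and 31.9 and 30.1 at 48 h. Under LDE225 the values were 44.4, 41 and 54.7 at 4 h, 65.3, 59.1 and 54 at 16 h, and 91.2 and 75.6 at 48 h. In resistant tumours they were 38.2 and 43.9 on the lower dose and 33.4, 72.5 and 46.4 on the higher dose. The vehicle and LDE225 tumours overlapped at 4 h and were apart at 16 h and 48 h, with LDE225 higher. LDE225 at 48 h averaged 83.4 ± 11 (SD, n = 2) and did not overlap the next group, LDE225 at 16 h (59.5 ± 5.66, SD, n = 3), and every later neighbour in the order overlapped.

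The repressor Per2 was read by its first probe set with a signal of 20.4, 26.6 and 32 in vehicle tumours at 4 h, 44.3, 33.6 and 39.6 at 16 h, and 34.2 and 19.2 at 48 h. Under LDE225 it was 16.7, 36.4 and 25.9 at 4 h, 8, 13.1 and 12.1 at 16 h, and 17.6 and 29.9 at 48 h. Resistant tumours gave 22.8 and 46.6 on the lower dose and 52.2, 19.6 and 20.7 on the higher dose. LDE225 at 16 h averaged 11.1 ± 2.70 (SD, n = 3) and lay below every other tumour, and the other 7 groups overlapped their neighbours in order from vehicle at 16 h (39.2 ± 5.36, SD, n = 3) down. The second Per2 probe set, 1417603_at, ranged from 0.6 to 15.8 and reached the 40th percentile of the array on 2 of 21 arrays, both of vehicle tumours. Its values did not follow those of the first (r = -0.3 over the 16 vehicle and sensitive arrays), and it is too dim to say where Per2 moved. It passed in none of 19 comparisons between groups (limma), with differences from -0.74 to 0.80 on the log2 scale and no unadjusted p below 0.14.

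The nuclear receptor Nr1d1 was read by 1426464_at, with a signal of 24.1, 16.4 and 12.7 in vehicle tumours at 4 h, 14.3, 19.2 and 25.9 at 16 h, and 17.9 and 23.9 at 48 h. Under LDE225 it was 6.4, 19.3 and 3.5 at 4 h, 4.3, 7.5 and 2.6 at 16 h, and 35.1 and 48.5 at 48 h. In resistant tumours it was 26.9 and 33.3 on the lower dose and 43.1, 59.7 and 27.2 on the higher dose. By signal, the 5 resistant tumours and the 2 tumours of LDE225 at 48 h all exceeded the 8 vehicle tumours. By percentile on the array, resistant tumours (48.5 to 60.1) overlapped vehicle tumours (37.7 to 51.4). LDE225 at 16 h was lowest (4.80 ± 2.49, SD, n = 3), and 15 of the 21 arrays reached the 40th percentile. The other probe set given for Nr1d1, 1421802_at, stayed between 0.2 and 7.6, never reached the 40th percentile (11.2 to 19.3 across arrays) and was not tested.

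The output gene Dbp was read by a pair of probe sets. Its first probe set had a signal of 36.1, 65.1 and 46.6 in vehicle tumours at 4 h, 40, 55.5 and 74.7 at 16 h, and 96.6 and 76.3 at 48 h. Under LDE225 it was 44.5, 50.2 and 48.7 at 4 h, 61.4, 72.2 and 68.3 at 16 h, and 147.7 and 173.5 at 48 h, and in resistant tumours 66.1 and 85.1 on the lower dose and 83.6, 69.1 and 64.2 on the higher dose. LDE225 at 48 h lay above every other tumour, and every later neighbour in the order overlapped.

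For Dbp 1438211_s_at, the signal was 89.8, 119.7 and 105.6 in vehicle tumours at 4 h, 68.4, 86 and 120.1 at 16 h, and 194.9 and 136.4 at 48 h. Under LDE225 it was 78.3, 103.4 and 87.1 at 4 h, 123.7, 131.5 and 117.3 at 16 h, and 306.9 and 397.4 at 48 h, and in resistant tumours 116.8 and 187.6 on the lower dose and 221, 120.2 and 129.3 on the higher dose. Both probe sets put the groups at 48 h of LDE225 first and at 48 h of vehicle second. Over the 16 vehicle and sensitive arrays their log2 values correlated at r = 0.96, and of the 32841 other probe sets tested each was the closest to the other. Within groups, over all 21 arrays, r was 0.84.

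The first comparisons asked whether clock RNA differed between harvest times. Differences are on the scale log2(signal + 4), which understates changes of dim probe sets, and a probe set passed at an adjusted p below 0.05 (limma, Benjamini-Hochberg over the 32842 probe sets tested). Of the 8 clock probe sets, 7 passed the filter on low values. Whether groups overlapped is given throughout as a description only. The share of all probe sets without overlap was not computed. In vehicle tumours none of the 7 differed between 16 h and 4 h, where 0% of all probe sets tested passed. At an unadjusted p below 0.05, 0 of the 7 and 5.78% of all passed. The intervals left room for sizeable differences: Per2 (first probe set) was 0.52 higher at 16 h (95% interval -0.24 to 1.28), without overlap of the groups, and Per1 was -0.46 (-0.99 to 0.07).

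Between 48 h and 4 h of vehicle, none of the 7 passed, against 0.746% of all probe sets tested, and 3 had an unadjusted p below 0.05 (limma), against 11.9% of all. These were Arntl, with a difference of 0.46 (SE 0.21, adjusted p = 0.4), Dbp (first probe set) at 0.79 (SE 0.25, adjusted p = 0.17) and Dbp 1438211_s_at at 0.63 (SE 0.27, adjusted p = 0.36), each without overlap of the groups. Between 16 h and 48 h of vehicle none of the 7 passed either, against 1.37% of all. Both Dbp probe sets had an unadjusted p below 0.05 there (limma), at -0.61 (SE 0.25) and -0.84 (SE 0.27), against 16.9% of all. None passed in either comparison with the actin ratio as a covariate (limma, adjusted p = 1 for each). For 48 h against 4 h Dbp was then at 1.18 and 0.86 and Arntl at 0.30, while Nr1d1 went from 0.22 to -0.42 and Per2 (first probe set) from -0.01 to 0.85. For 16 h against 48 h Dbp was at -1 and -1.08, Nr1d1 went from -0.08 to 0.57 and Per2 (first probe set) from 0.53 to -0.34.

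Under LDE225, Dbp, Nr1d1, Arntl and Per1 stood higher at 48 h than at 4 h. Of the 7 probe sets, 5 rose and none fell, where 32.5% of all probe sets tested passed and 17.7% rose. The output gene Dbp rose by 1.67 (SE 0.25, limma, adjusted p = 5.8e-05) on the first probe set and by 1.92 (SE 0.27, adjusted p = 3e-05) on 1438211_s_at, 3.17-fold and 3.80-fold. Nr1d1 rose by 1.89 (SE 0.43, limma, adjusted p = 0.0023), and by 0.84 with an offset of 32, which also passed. The activator Arntl rose by 0.65 (SE 0.21, adjusted p = 0.023) and the repressor Per1 by 0.79 (SE 0.28, adjusted p = 0.038). Per2 (first probe set) differed by -0.11 (95% interval -0.96 to 0.74). The median difference was 0.80 over the 7 probe sets, the value of the dim Per2 1417603_at, which was not called. Over all tested, which moved both ways, it was 0.05. By size, 38.9% of all probe sets tested changed at least as much as Arntl and 31% as much as Per1. For Dbp these shares were 9.32% and 7.06%, and for Nr1d1 7.3%. For each of the 5 that rose, both tumours of 48 h lay above all 3 of 4 h, with no share over all probe sets computed.

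The call for Per1 was lost without LDE225 tumour 1 or 2 of 4 h or either LDE225 tumour of 48 h, at adjusted p from 0.082 to 0.22 (limma), and that for Arntl without tumour 1 or 2 of 4 h (0.057 and 0.064) or tumour 2 of 48 h (0.19), which left 3 calls in each of the 3 cases that took both. With the actin ratio as a covariate (limma), both Dbp probe sets passed (1.94, adjusted p = 0.0022, and 2.09, adjusted p = 0.0026). Nr1d1 (1.44, adjusted p = 0.14), Per1 (0.69, adjusted p = 0.31) and Arntl (0.54, adjusted p = 0.29) did not. The ratio was 1.26 and 1.33 at 48 h of LDE225 and 1.53 to 1.69 at 4 h, so this fit cannot separate it from harvest time. Quantile normalization moved the median difference of all probe sets tested by -0.25 in this comparison, and the share of calls that were higher from 54.5% to 42.2%. Per1 (0.48, adjusted p = 0.21) and Arntl (0.42, adjusted p = 0.13) then did not pass, while Dbp and Nr1d1 did. With no filter Per1 was at 0.79 (adjusted p = 0.058).

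Between 16 h and 4 h of LDE225 none of the 7 passed, against 8.71% of all probe sets tested, and 1 had an unadjusted p below 0.05 (limma), against 23.4% of all: Per2 (first probe set), at -0.97 (SE 0.36, adjusted p = 0.11), without overlap. Between 16 h and 48 h, 3 of the 7 were lower at 16 h, where 21.2% of all passed and 10.5% were lower. They were both Dbp probe sets, at -1.21 (SE 0.25, limma, adjusted p = 0.0024) and -1.46 (SE 0.27, adjusted p = 0.001), and Nr1d1, at -2.40 (SE 0.43, adjusted p = 0.00079). The size for Nr1d1, whose values at 16 h lay around the offset of 4, was -2.95 with an offset of 1 and -1 with an offset of 32, and it passed with both. With the actin ratio as a covariate none of the 3 passed (Dbp -1.60 and -1.70, Nr1d1 -1.75, adjusted p from 0.11 to 0.31).

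**Figure D2:**
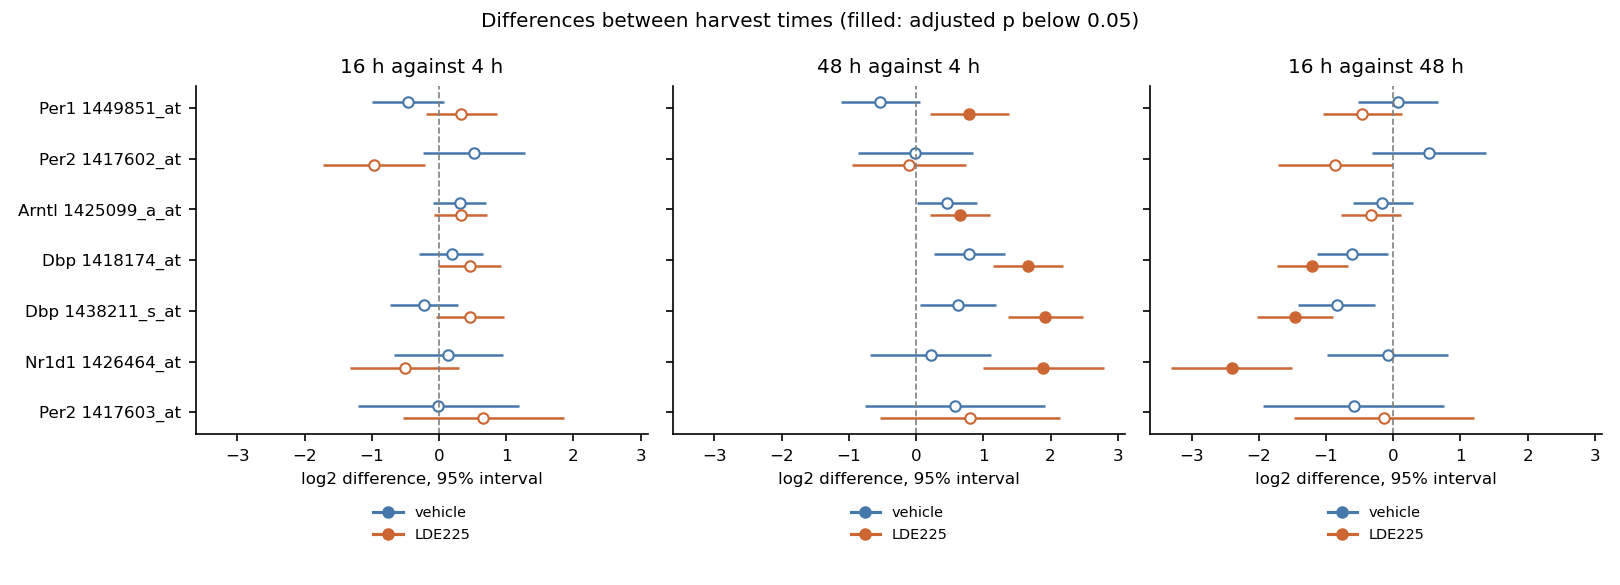
Log2 difference (x axis) with its 95% interval between harvest times for the 7 clock probe sets tested (y axis), in vehicle (blue) and LDE225 (orange) tumours; filled points have an adjusted p below 0.05. Filled points stand only under LDE225, 5 above 0 for 48 h against 4 h and 3 below 0 for 16 h against 48 h, and the vehicle Dbp points lie on the same side of 0 in both of these panels.

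Averaged over both treatments, 4 of the 7 probe sets were higher at 48 h than at 4 h, where 26.7% of all probe sets tested passed and 15.1% were higher. Dbp differed by 1.23 (SE 0.18, limma, adjusted p = 8.1e-05) and 1.28 (SE 0.19, adjusted p = 0.00012), Nr1d1 by 1.06 (SE 0.31, adjusted p = 0.015) and Arntl by 0.56 (SE 0.15, adjusted p = 0.0095). Arntl no longer passed without vehicle tumour 1 of 48 h, Nr1d1 without vehicle tumour 3 of 48 h, and neither passed without LDE225 tumour 2 of 48 h, which left 2 calls. Both Dbp probe sets and Nr1d1 were lower at 16 h than at 48 h (19.4% of all passed, 10.1% lower), and none of the 7 differed between 16 h and 4 h, where 2.11% of all passed. In that last comparison 1 of the 7, Arntl, had an unadjusted p below 0.05 (limma), against 15.6% of all. None passed in either comparison with 48 h once the actin ratio was a covariate (limma), and the estimated Dbp differences were larger. For 48 h against 4 h they were then 1.56 and 1.48 (adjusted p = 0.054 and 0.085), with Nr1d1 at 0.51 (0.77) and Arntl at 0.42 (0.58). For 16 h against 48 h Dbp was at -1.30 and -1.39 (adjusted p = 0.45 and 0.46) and Nr1d1 at -0.59 (0.9). With an offset of 32 the Nr1d1 differences were 0.46 and -0.52, and both passed. Quantile normalization moved the median of all by -0.15 for 48 h against 4 h and the share of calls that were higher from 56.4% to 43.3%, and Arntl was then at 0.39 (adjusted p = 0.053).

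Whether the harvest-time differences themselves differed between treatments was tested next. For 48 h against 4 h, 2 of the 7 had a difference that was higher under LDE225 than under vehicle. Of all probe sets tested 12.8% passed, and 6.1% in that direction. The gap was 1.32 for Per1 (SE 0.40, limma, adjusted p = 0.036), with differences of opposite sign, -0.53 in vehicle, not called, and 0.79 under LDE225. For Dbp 1438211_s_at it was 1.3 (SE 0.38, adjusted p = 0.032), from 0.63 in vehicle, not called, to 1.92. The other Dbp probe set differed by 0.87 (adjusted p = 0.12) and Nr1d1 by 1.67 (adjusted p = 0.08). Between 16 h and 48 h, Nr1d1 alone of the 7 passed, with -2.32 (SE 0.61, limma, adjusted p = 0.034), against 4.95% of all, 1.93% in that direction. Between 16 h and 4 h none passed, against 3.83% of all, and 2 had an unadjusted p below 0.05 (limma), against 17.5%: Per1 (0.79) and Per2 (first probe set) (-1.49).

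These interaction calls rested on few tumours. The call for Per1 was lost without any 1 of the 3 vehicle tumours of 4 h, the 2 of 48 h, LDE225 tumour 1 or 2 of 4 h, or either LDE225 tumour of 48 h, with adjusted p up to 0.14. That for Dbp 1438211_s_at was lost without vehicle tumour 2 or 3 of 4 h, vehicle tumour 3 of 48 h, LDE225 tumour 1 or 3 of 4 h, or LDE225 tumour 2 of 48 h, with adjusted p up to 0.2. That for Nr1d1 was lost without vehicle tumour 3 of 16 h, either vehicle tumour of 48 h, LDE225 tumour 1 or 3 of 16 h, or either LDE225 tumour of 48 h. The differences stayed at 1.19 or more for Per1, 1.05 or more for Dbp and -2.11 or beyond for Nr1d1 in those cases. With the actin ratio as a covariate, neither Per1 (1.36, adjusted p = 0.057) nor Dbp (1.23, adjusted p = 0.072) passed and Nr1d1 did (-2.32, adjusted p = 0.039), by limma, so the differences were close to those without it. With an offset of 32 Per1 was at 0.87 and Nr1d1 at -0.97, and with an offset of 1 Nr1d1 was at -2.86, and these calls held. Per1 was lost with no filter (1.32, adjusted p = 0.054) and with quantile normalization (1.08, adjusted p = 0.084), Dbp with no trend (1.3, adjusted p = 0.051) and Nr1d1 with no filter (-2.32, adjusted p = 0.051).

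The drug was then compared with vehicle at each harvest time, which asked how soon LDE225 altered clock RNA. At 4 h none of the 7 passed, against 0.104% of all probe sets tested, and none had an unadjusted p below 0.05 (limma), against 6.36% of all. Nr1d1 had the widest gap, -0.80 (95% interval -1.61 to 0.01), with overlapping groups.

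At 16 h of LDE225 the repressors Per1 and Per2 (first probe set) were displaced in opposite directions and Nr1d1 was lower. These 3 of the 7 passed, 1 higher and 2 lower, where 14.4% of all passed, 7.87% higher and 6.53% lower. Per2 (first probe set) was -1.53 (SE 0.36, limma, adjusted p = 0.0074), 2.88-fold lower, and the call held without any 1 of the 6 tumours. Its 3 LDE225 values were dim, at percentiles 30.2, 38.6 and 37.5 of their arrays. The other Per2 probe set, 1417603_at, was at 0.46 (95% interval -0.73 to 1.66) and did not pass. Nr1d1 was -1.44 (SE 0.39, adjusted p = 0.016), where the LDE225 values of 4.3 and 2.6 lay near the offset of 4. With an offset of 32 it was -0.49 (adjusted p = 0.052). That call was lost without vehicle tumour 3 (adjusted p = 0.07) or LDE225 tumour 1 (0.05) or 3 (0.08). Per1 was 0.78 higher (SE 0.25, limma, adjusted p = 0.044), and its call was lost without vehicle tumour 1 (0.22) or 2 (0.075) or any of the 3 LDE225 tumours (0.13, 0.099 and 0.079). Without LDE225 tumour 1 or 3, 1 call was left. With the actin ratio as a covariate Per1 was at 0.79 (limma, adjusted p = 0.052) and the other calls held. With an offset of 32 Per2 was at -0.72 and Per1 at 0.48, and both passed. With quantile normalization Per1 was at 0.64 (adjusted p = 0.12). None of the 3 pairs of groups overlapped, nor did those of Arntl, which was not called, with no share over all probe sets computed. Arntl (0.26, 95% interval -0.14 to 0.66) and Dbp (0.27, -0.20 to 0.74, and 0.46, -0.05 to 0.97) did not pass.

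At 48 h of LDE225 Per1 and Dbp were higher than in vehicle tumours. These were 3 of the 7 probe sets, all higher, where 22.7% of all passed and 11.6% were higher. Per1 was 1.31 higher (SE 0.31, limma, adjusted p = 0.0047), 2.49-fold, and Dbp was 0.87 (SE 0.28, adjusted p = 0.029) and 1.08 higher (SE 0.30, adjusted p = 0.013), 1.83-fold and 2.11-fold. With an offset of 32 Per1 was at 0.87 and passed. Groups did not overlap for any of them, with no share over all probe sets computed. The arrays of 48 h had actin ratios between 1.25 and 1.33. With 2 tumours on each side, both Dbp calls were lost without vehicle tumour 3 (adjusted p = 0.24 and 0.18) or LDE225 tumour 2 (0.17 and 0.12), that of the first probe set also without LDE225 tumour 1 (0.067), and that of Per1 without LDE225 tumour 1 (0.05). Without vehicle tumour 3 or LDE225 tumour 2, 1 call was left. Quantile normalization moved the median of all by -0.22 and the share of calls that were higher from 51.2% to 40.9%, and the 3 calls held. Nr1d1 was 0.87 higher (95% interval -0.12 to 1.87) and Arntl 0.43 higher (-0.05 to 0.92), both without overlap. Per2 (first probe set) differed by -0.14 (-1.07 to 0.79) at 48 h.

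**Figure D3:**
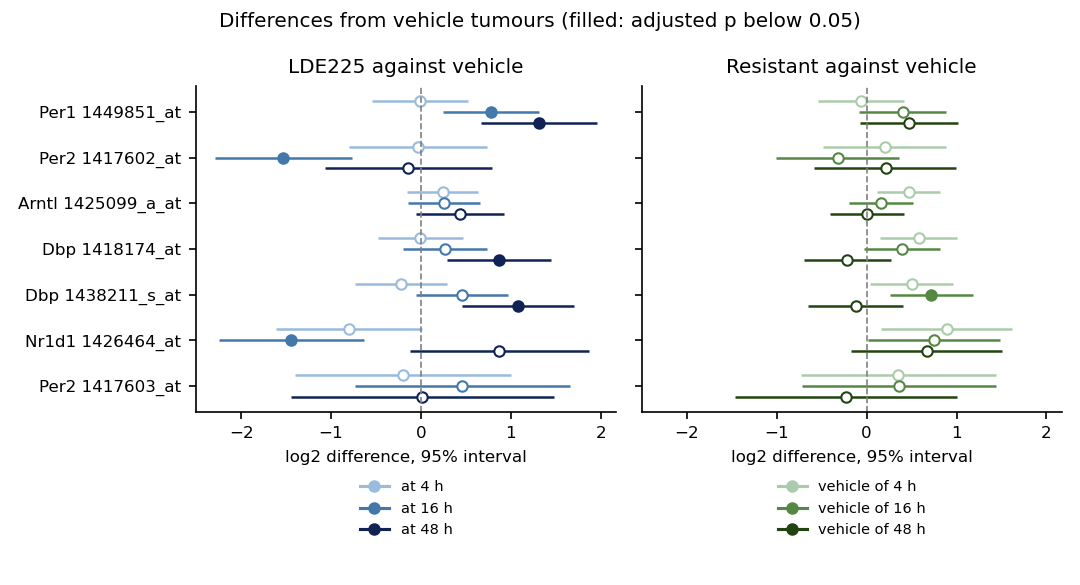
Log2 difference from vehicle tumours (x axis) with its 95% interval for the 7 clock probe sets tested (y axis), for LDE225 at 3 harvest times (left, blue shades) and for resistant tumours against the vehicle tumours of each time (right, green shades); filled points have an adjusted p below 0.05. Per2 (first probe set) and Nr1d1 lie furthest below 0 at 16 h of LDE225, at -1.53 and -1.44, and Per1 furthest above 0 at 48 h, at 1.31.

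Resistant tumours had no hour of harvest, so they were set against the vehicle tumours of each time in turn. The 3 comparisons share the resistant arrays and are not independent of each other. Against vehicle at 16 h, 1 of the 7 passed, where 12.3% of all did and 7.12% were higher: Dbp 1438211_s_at, higher by 0.72 (SE 0.22, limma, adjusted p = 0.037), with overlapping groups. That call was lost without vehicle tumour 1 (adjusted p = 0.21) or 2 (0.098), resistant tumour 2 at 20 mg/kg/day (0.17) or resistant tumour 1 at 160 mg/kg/day (0.058), and with the actin ratio as a covariate, where the difference was larger (0.91, adjusted p = 0.47). Quantile normalization moved the median of all by -0.11 and the share of calls that were higher from 57.7% to 47.3%, and the call was lost (0.61, adjusted p = 0.07). Against vehicle at 4 h none passed, where 7.76% of all did, and 4 had an unadjusted p below 0.05 (limma), against 22.6% of all. These were Arntl (0.47), both Dbp probe sets (0.58 and 0.50) and Nr1d1 (0.89). Arntl was at 0.33, Dbp at 0.89 and 0.69 and Nr1d1 at 0.37 with the actin ratio as a covariate (limma, adjusted p from 0.43 to 0.88).

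Against vehicle at 48 h, whose 2 arrays had actin ratios of 1.30 and 1.25 beside 1.27 to 1.40 on the 5 resistant arrays, none of the 7 passed, where 1.34% of all did, and none had an unadjusted p below 0.05 (limma), against 13.6% of all. Nr1d1 was 0.67 higher there (95% interval -0.17 to 1.5). Its signals did not overlap in any of the 3 comparisons, none of which passed for it. By percentile on the array, its resistant and vehicle tumours overlapped in each. Between 160 and 20 mg/kg/day none of the 7 passed, where 0.773% of all did, and none had an unadjusted p below 0.05 (limma), against 13.6% of all. The widest interval, that of Per2 1417603_at, ran from -2.08 to 0.60.

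Correlations between the genes were of both signs and differed within groups. Values within groups are correlations of deviations from the 8 group means over all 21 arrays, resistant tumours included. The other values cover the 16 vehicle and sensitive arrays, which share 6 groups, so each pair of values rests on different arrays. Arntl correlated with Dbp at r = 0.71 and 0.70, and within groups at -0.15 and -0.14. Per1 and Per2 (first probe set) correlated at -0.51, and at -0.40 within groups. Nr1d1 correlated with Per2 (first probe set) at 0.51 and with Dbp at 0.50 and 0.55, and within groups at 0.17 and at 0.21 and 0.28. Per2 (first probe set) correlated with Dbp at -0.08 and -0.10, and within groups at 0.50 and 0.78. Many probe sets correlated as strongly. Of the 32841 other probe sets tested, Dbp (first probe set) ranked 2428th by correlation with Arntl, and Nr1d1 7306th by correlation with that Dbp probe set. By correlation with Nr1d1, Per2 (first probe set) ranked 1565th and Dbp (first probe set) 1767th. The correlations are descriptions of tumours that share treatment and harvest time.

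Copy number at the clock genes was read from the DNA arrays, where genes are named by the files. The ratio is the mean log2 of tumour over liver DNA across the probes of a gene, centred on the autosomes. Arntl (15 probes, chr7:112999997-113104106, build mm8) had ratios of 0.03, 0.04 and 0.02 in vehicle tumours, and of -0.06, -0.05 and -0.10 on 40, 80 and 160 mg/kg/day. Per1 (3 probes, chr11:68916670-68924893, mm8) had ratios of 0.21, 0.20 and 0.22 in vehicle tumours, and of 0.11, 0.15 and 0.20 with resistance, doses in the same order. Both loci differed by at most 0.1 between group means. The difference was -0.10 at Arntl (SE 0.03, limma, adjusted p = 0.089) and -0.06 at Per1 (SE 0.03, adjusted p = 0.24).

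Per2 varied more (8 probes, chr1:93246656-93287869, mm8). Its ratio was 0.09, 0.08 and 0.10 in vehicle tumours, then 0.05, 0.30 and 0.59 with rising dose among resistant tumours, a mean difference of 0.22 (SE 0.13, limma, adjusted p = 0.26). The labels of the tumour on 160 mg/kg/day conflict, since its characteristics call it resistant and its title calls it vehicle treated. The probes of Per2 spread by 0.37 (SD over probes) in it, against 0.11 to 0.16 in vehicle tumours. This wider spread was not particular to Per2. At Arntl it was 0.48 against 0.12 to 0.19, and at Rora (95 probes) 0.50 against 0.15 to 0.22. At Per1, Nr1d1 and Dbp it was 0.23, 0.41 and 0.77, against at most 0.14, 0.12 and 0.51. The tumours on 40 and 80 mg/kg/day also spread more widely at Arntl, by 0.35 and 0.24. Dbp and Nr1d1 had 2 probes each and were not tested. The Dbp ratio was -0.03, -0.07 and 0.09 with vehicle against -0.12, -0.04 and -0.18 with resistance. The Nr1d1 ratio was 0.08, 0.02 and 0.09 with vehicle against -0.25, -0.09 and -0.33, without overlap.

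Of a wider list of 33 clock genes, 28 had at least 3 probes, and 1 passed between resistant and vehicle tumours, where 1.95% of all genes tested did. It was Arntl2, a paralog of Arntl (4 probes, chr6:146767967-146784509, mm8), whose ratio was 0.60, 0.56 and 0.53 with vehicle against 0.28, 0.35 and 0.28 with resistance, a difference of -0.26 (SE 0.04, limma, adjusted p = 0.035). The 4 Arntl2 probes spread by 0.46, 0.38 and 0.71 (SD over probes) in the resistant tumours, against 0.12 to 0.33 with vehicle. An unadjusted p below 0.05 was reached by 11 of the 28, against 33.5% of all genes tested. The count at an adjusted p below 0.05, which was 1 with all tumours, depended on single tumours. It was 0 without any 1 of the 3 vehicle tumours or without the tumour at 160 mg/kg/day, and 5 without the tumour at 40 mg/kg/day. Among genes that did not pass, ratios differed more in several resistant tumours, given here for 40, 80 and 160 mg/kg/day and chosen after their values were seen. Csnk2a1 (chromosome 2), a clock protein kinase subunit, was at 0.29, 0.60 and 0.95, against 0.13 to 0.21 with vehicle (limma, adjusted p = 0.12). Nampt (chromosome 12), which makes an NAD precursor, was at 0.52, 0.62 and 0.82, against 0.14 to 0.37 (adjusted p = 0.072). Btrc (chromosome 19), a ubiquitin ligase subunit that acts on PER proteins, was at 0, -0.37 and -0.67, against 0.02 to 0.10 (adjusted p = 0.15). The lower ratios were not particular to Btrc. Rorb, elsewhere on chromosome 19, was at 0, -0.36 and -0.62, against -0.10 to -0.07 with vehicle (limma, adjusted p = 0.3).

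**Figure D4:**
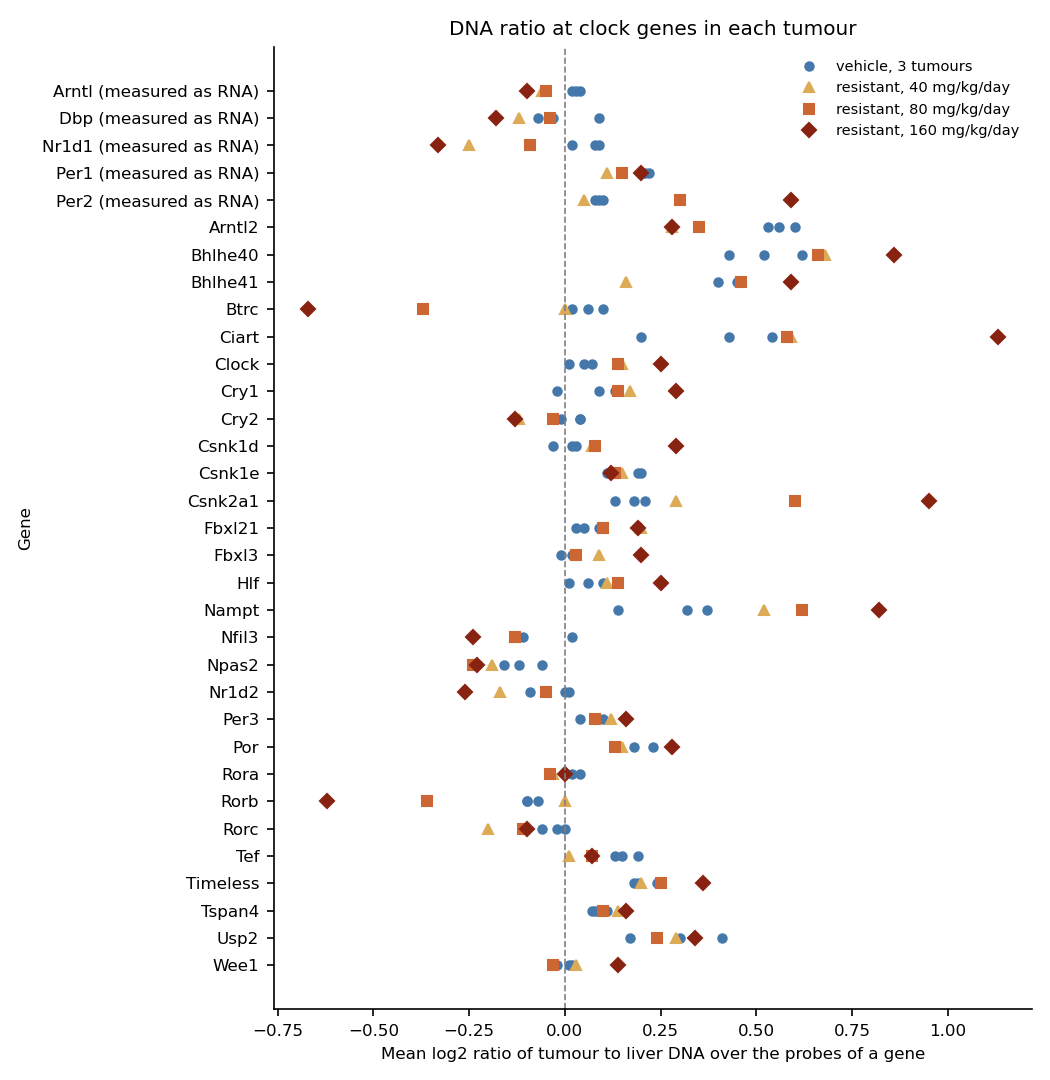
Mean log2 ratio of tumour to liver DNA (x axis) at 33 clock genes (y axis) in each of 6 tumours: 3 vehicle (blue circles) and resistant tumours at 40 (triangles), 80 (squares) and 160 mg/kg/day (diamonds). The points of Arntl and Per1 lie within 0.22 of 0 in all tumours, while Per2 reaches 0.59 in the tumour at 160 mg/kg/day.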

How the data were processed

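The authors deposited RNA intensities on a linear scale. The submitters' processing notes name MAS5, and its scaling is not given in the sources used here. An offset of 4 was added before log2. Of 45101 probe sets, 64 controls were left out, and 32842 were tested because 2 or more arrays had them at or above the 40th percentile. The limma package (3.58.1, R 4.3.3) fitted 8 group means to the 21 arrays, allowing for a trend of variance with level and leaving 13 residual degrees of freedom, and 19 comparisons were made, two-sided. Labels name mice but not litters or days, so p-values measure the spread between these tumours. The number of arrays limits the precision.

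The DNA files hold intensities made by Feature Extraction 9.5.3.1 with mm8 positions, per the file headers. Tumour DNA was Cy5 and liver DNA Cy3, per the labels. Background-subtracted, dye-normalized signals were taken as log2 ratios, centred on each array's autosomal median and averaged per gene, with 13602 genes of at least 3 probes tested. The authors' deposited log10 ratios, with column medians from -0.0109 to -0.00158, ran the same way (r of 0.9996 or more with the scanner ratios) and served as an alternative.

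The naming rule took the 8 clock probe sets in every comparison. Of these 7 were tested, and the text gives those that passed or came near, not every value of the others. Further clock genes, probe sets of like pattern, glucocorticoid targets and cell type markers were to be named on RNA by gene symbol, which the tables used here do not allow, so the wider clock list was used on DNA only. The members and lists were chosen with earlier results of these data known. The fits were tested on simulated data. Alternatives to the offset, filter, scaling, trend, weights, arrays, actin ratio, block and DNA signals were computed. Figures were drawn with matplotlib 3.10.9 in Python 3.11.15.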

Additional observations from a re-analysis of the deposited data

Results flagged for a closer look

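The change of Per1 1449851_at from 4 h to 48 h differed between LDE225 and vehicle tumours by 1.32 on the log2 scale (limma, adjusted p = 0.036), higher under LDE225. The same difference was 1.3 for Dbp 1438211_s_at (limma, adjusted p = 0.032). For Nr1d1 1426464_at the difference between 16 h and 48 h was -2.32 relative to vehicle (limma, adjusted p = 0.034). Each was singled out because the test of the difference between the treatments passed, and each was lost when single tumours were left out, as given with these results above.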

How the results depend on the processing

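No called difference changed sign under any alternative, and the counts of clock probe sets past the threshold kept within 1.5 times of the reported ones with offsets of 1 and 32. With quantile normalization the count became 1 for LDE225 at 16 h against 4 h, 3 for LDE225 at 48 h against 4 h, 1 for the treatment difference in 48 h against 4 h and 0 for resistant against vehicle at 16 h. With the actin ratio as a covariate it became 2 for LDE225 at 48 h against 4 h and 0 for LDE225 at 16 h against 48 h, for both treatments in 48 h against 4 h and in 16 h against 48 h, for the treatment difference in 48 h against 4 h and for resistant against vehicle at 16 h. With array weights, and with only the arrays compared, it became 1 for the treatment difference in 16 h against 4 h and 0 for resistant against vehicle at 16 h. With no filter it became 1 for the treatment difference in 48 h against 4 h and 0 for that in 16 h against 48 h, and with no trend 1 for the former and 0 for resistant against vehicle at 16 h. On DNA the count was 0 with normexp signals and 0 with at least 1 probe per gene. Per1 was also lost with no filter in LDE225 at 48 h against 4 h (limma, adjusted p = 0.058), and in LDE225 against vehicle at 16 h with no filter and with only the arrays compared (limma, adjusted p = 0.068 and 0.06). The cause was not tested in these cases.

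Leaving out 1 tumour at a time gave counts of 3 to 5 for LDE225 at 48 h against 4 h, 2 to 4 for both treatments at 48 h against 4 h, 1 to 2 for LDE225 against vehicle at 16 h, 1 to 3 at 48 h, 0 to 2 and 0 to 1 for the treatment differences in 48 h against 4 h and in 16 h against 48 h, 0 to 1 for resistant against vehicle at 16 h, and 0 to 5 on DNA. Where a side kept 1 tumour, that tumour was assumed to vary like the other groups. Mouse numbers were not taken to pair the tumours, since the labels tie them to nothing shared. Deviations of same-numbered tumours of different groups had a median r of 0 over 64 pairs, from -0.2 to 0.43. Of the 64, 17 were above 0.1, a larger share than the 15 of 128 pairs of different number. These values do not settle whether the numbers pair the tumours. With the mouse number as a replicate block, 1 probe set passed for the treatment difference in 48 h against 4 h (Dbp 1438211_s_at lost, 1.24, limma adjusted p = 0.059), 0 for that in 16 h against 48 h (Nr1d1 lost, -2.01, adjusted p = 0.059), and Dbp's first probe set was lost in LDE225 against vehicle at 48 h (0.81, adjusted p = 0.051). It changed no other call.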
